A study of Mus musculus with 4 samples.

Results

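The 9 genes described here encode homeodomain transcription factors, namely the Iroquois genes Irx1, Irx2, Irx3, Irx4, Irx5 and Irx6 and the sine oculis genes Six2, Six4 and Six5. They were matched by symbol among the 54842 gene identifiers of the counts table, and all 9 were found. The list was selected on measured values of the comparison of Top2β-null with wt MEF cells, so the differences of its members in that comparison are given as a description, with no test. Total RNA without ribosomal RNA was sequenced from untreated mouse embryonic fibroblasts (MEF cells) of the wild-type genotype (wt, 2 libraries) and of the top2beta null genotype (Top2β-null, 2 libraries). The labels give the same serum-containing medium for all 4 libraries. The Top2β-null cells come from mice without Top2β, the topoisomerase 2 isoform that acts throughout the cell cycle, and the study's methods cite another source for the wt cells, so that genotype and origin of the cells cannot be told apart. No source says that the libraries of a genotype are separate cultures, and the spread between them may be technical.

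Iroquois proteins carry a homeodomain of the TALE superclass, which has a lengthened loop, and they pattern the neural tube, heart, limb and other organs of the embryo. The Iroquois genes of the mouse lie in a pair of clusters, 1 with Irx1, Irx2 and Irx4 and 1 with Irx3, Irx5 and Irx6, and enhancers in the long stretches between the genes can act on several of them. Sine oculis proteins combine a homeodomain with a further conserved domain that binds EYA coactivators, and they act in muscle, kidney, sense organs and craniofacial mesenchyme. Six2 is best known for keeping nephron progenitors undifferentiated in the kidney, and it is also expressed in mesenchyme of the face and limb.

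The clustered arrangement is seen in GENCODE M21 on GRCm38, the assembly also named mm10. Irx1 lies on chromosome 13 (71957921 to 71963723, reverse strand), Irx2 on the same chromosome (72628820 to 72634198, forward strand) and Irx4 beyond it (73260479 to 73269608, forward strand). The start of Irx1 is 665.1 kb from that of Irx2, and the start of Irx2 is 631.7 kb from that of Irx4. Irx3 (91798525 to 91802067, reverse strand), Irx5 (92357625 to 92376286, forward strand) and Irx6 (92674288 to 92680956, forward strand) lie on chromosome 8. Their starts are 555.6 kb apart for Irx3 and Irx5 and 316.7 kb apart for Irx5 and Irx6. The sine oculis genes are on separate chromosomes, Six2 on chromosome 17 (85684277 to 85688274, reverse strand), Six4 on chromosome 12 (73099609 to 73113456, reverse strand) and Six5 on chromosome 7 (19094594 to 19098549, forward strand).

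The members differ in how closely their coding sequences resemble each other, which bears on whether reads can be assigned to them. The 30 bases below, from GENCODE M21 transcripts, encode a stretch of the recognition helix, the part of the homeodomain that enters the major groove of DNA. All 9 begin with the codons for the invariant tryptophan and phenylalanine, and capitals mark bases that differ from Irx1 in the Iroquois genes and from Six2 in the sine oculis genes.
Irx1: tggttcgccaatgcgcgccggcgcctcaag
Irx2: tggttcgccaaCgcgcgccgAcgTctcaag
Irx3: tggttcgccaaCgcgcgccggcgcctcaag
Irx4: tggttTgccaaCgcAcgTcggcgcctcaag
Irx5: tggttTgccaaCgcgcgccggcgcctcaag
Irx6: tggttcgccaaCgcgcgccggcgcctcaag
Six2: tggttcaagaaccggcggcagcgcgacagg
Six4: tggttcaagaaccggcggcagcgTgacCgA
Six5: tggttcaagaaccggcgAcagcgcgacCgC
These runs lie within coding exons, for example at chr13:71960004-71960033 (reverse strand, exon 2) in Irx1, at chr13:72630811-72630840 (forward strand, exon 2) in Irx2 and at chr17:85687413-85687442 (reverse strand, exon 1) in Six2. Irx1 and Irx2 differ at 3 of these bases, and Irx1 and Irx3 at 1. Over 180 coding bases that contain this helix, Irx1 and Irx3 encode the same residues at 100% of codons while 91.7% of their bases match, and Irx2 and Irx5 also encode the same residues at 100% of codons with 90.6% of bases matching. Irx1 and Irx2, the neighbours on chromosome 13, match at 91.7% of encoded residues. The sine oculis genes are farther apart, with 66.7% (Six2 and Six5) to 76.7% (Six4 and Six5) of encoded residues matching. Despite these likenesses, few 50-base words are shared. For Irx1, Irx4 and Six5, 0 of their 50-base words occur in a transcript of another gene, and the share is 0.481% for Irx2, 0.552% for Irx5, 0.486% for Six4 and 1.03% for Six2. It is 4.16% for Irx3, which overlaps the antisense gene Irx3os, and 3.53% for Irx6, which overlaps the antisense gene Gm45505. Of these shared words, 40 of 115 for Irx3 and 39 of 119 for Irx6 occur in other members. Whether strand was used in counting is not given in the sources used here. Reads from the stretches that Irx3 shares with Irx3os, or Irx6 with Gm45505, therefore cannot be told apart from these counts.

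Irx1 and Irx2 had no count in wt MEF cells and were abundant in Top2β-null MEF cells (the plot of normalized counts by gene and library). Six2 showed the opposite pattern, with a mean of 3038 normalized counts in wt against 4.62 in Top2β-null MEF cells. Six4 was modestly higher in the Top2β-null libraries, Irx3, Irx5 and Six5 lay close to their wt levels, and Irx4 and Irx6 were at or near 0 in every library. Counts were scaled by TMM factors to a common library size, and these scaled values are called normalized counts. In bulk RNA, fewer cells that express a gene and less RNA per cell cannot be told apart.

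**Figure D1:**
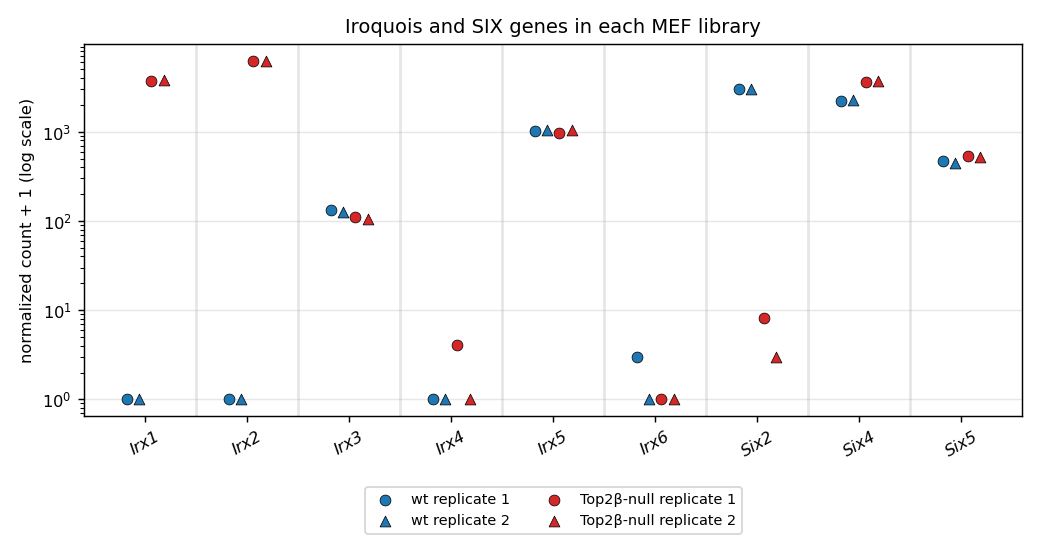
Normalized count plus 1 (log scale) of each of the 9 Iroquois and sine oculis genes in the wt libraries (blue) and the Top2β-null libraries (red), with circles for replicate 1 and triangles for replicate 2. Irx1 and Irx2 have points at 0 in wt and between 3694 and 6231 in Top2β-null, and Six2 has points at 3029 and 3047 in wt and at 7.25 and 1.98 in Top2β-null.

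Irx1, which acts in lung, limb and neural development, had 0 counts in both wt libraries, whereas the Top2β-null libraries held 3694 and 3793 normalized counts. A count of 0 allows up to 3 counts, which is 3.03 normalized counts in wt replicate 1 and 2.90 in wt replicate 2. Against this floor, taken per library, Irx1 was at least 1264-fold higher in Top2β-null MEF cells. Irx2, a paralogue expressed in many of the same embryonic tissues, also had 0 counts in both wt libraries, whereas the Top2β-null libraries held 6195 and 6231 normalized counts. It was at least 2097-fold higher against the same floor. In both genes each Top2β-null library lay above each wt library, and the Top2β-null replicates differed little, with a mean of 3744 ± 70.1 (SD, n = 2) for Irx1 and 6213 ± 25.0 (SD, n = 2) for Irx2. The ratio of Irx2 to Irx1, as normalized counts per kb of exon, was 1.34 and 1.31 in the Top2β-null libraries. Irx4, the third gene of this cluster and known as a factor of the heart ventricle, did not follow. Its raw counts were 0 in both wt libraries, as against 3 and 0 in Top2β-null, so that both groups were at the floor and no fold is given.

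The cluster on chromosome 8 showed no such switch. Irx5, the most abundant of its 3 genes and a factor of heart and retina development, was counted at 1008 and 1044 in wt and at 971 and 1037 in Top2β-null MEF cells after normalization. The groups overlapped, the fitted log2 fold change was -0.031 (standard error 0.0579), and it was 0.039 with scaling to the total count, so that no direction can be given. Irx3, known for roles in the neural tube, in heart conduction and in fat tissue, reached 133 and 124 normalized counts in wt. Its Top2β-null values were 111 and 105, both below wt, with a log2 fold change of -0.25 (standard error 0.158). The counting error of Irx3 alone is of this size, since the wt to null ratio of its summed counts was 1.19 with an exact 95% binomial interval from 0.989 to 1.43, which covers counting error only. Irx6, the third gene of the cluster, had raw counts of 2 and 0 in wt and of 0 in both Top2β-null libraries, which is at the floor in both groups.

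Six2 reached 3029 and 3047 normalized counts in wt, a mean of 3038 ± 13.1 (SD, n = 2). In the Top2β-null libraries it had 7.25 and 1.98 normalized counts, from 7 and 2 raw counts, and the groups did not overlap. Its log2 fold change was -9.34 (standard error 0.132), and the wt to null ratio of summed counts, scaled by library size, was 667 with an exact 95% binomial interval from 351 to 1459. That interval covers counting error only and rests on the 9 counts left in the Top2β-null libraries. The log2 fold change was -10.48 without Top2β-null replicate 1 and -8.68 without Top2β-null replicate 2, and DESeq2 gave it a standard error of 0.486, so its size is known less well than its direction. Six4, which acts in muscle precursors, was counted at 2208 and 2252 in wt and at 3623 and 3740 in Top2β-null MEF cells after normalization. Both Top2β-null libraries lay above both wt libraries, with a log2 fold change of 0.72 (standard error 0.0396), or 1.65-fold. Six5, the gene beside Dmpk at the locus of myotonic dystrophy, stood at 473 and 451 normalized counts in wt and at 528 and 522 in Top2β-null MEF cells. These groups did not overlap either, but the log2 fold change was small at 0.18 (standard error 0.0738). With 2 libraries per group, groups can separate without a difference in level. The share of all features that separate was not counted, so nothing is read from the separation of any member.

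A gene was called where it met the cut-offs of the study's methods, which ask for a mean above 100 normalized counts, a log2 fold change beyond 1 in either direction and an adjusted p under 0.05. With edgeR, 2 of the 9 members were called higher and 1 was called lower. Of all 26566 genes and repeat families tested, 5.27% were called higher and 4.97% lower. Because the members were chosen with this comparison known, nothing is read from their count. Irx4 and Irx6 did not pass the filter on low counts, and 7 of the 9 members were tested.

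Per kb of exon, which allows levels to be compared between genes, Six2 was the most abundant member in wt MEF cells, and Irx2 and Irx1 were in Top2β-null MEF cells (the bar plot of levels per exon length). In wt, Six2 had 1434 normalized counts per kb, followed by Irx5 with 328, Six4 with 205, Six5 with 154 and Irx3 with 46.5. Each of these genes lay apart from the next in both libraries, whereas Irx6, at 0.599 and 0, did not differ from Irx1, Irx2 and Irx4 at 0. In Top2β-null, Irx2 had 1893 and Irx1 had 1429 normalized counts per kb. Six4 came next with 339 and Irx5 with 321, with Six4 at 334 and 345 and Irx5 at 311 and 332 in the 2 libraries, so that the genes stood in this order within each library but were only narrowly apart across them. Six5 with 175 and Irx3 with 39.1 normalized counts per kb followed, and Six2 (3.42 and 0.935) overlapped with Irx4 (1.19 and 0). Among tested genes, the wt level of Six2 exceeded 82.8% of genes, and the Top2β-null levels of Irx1 and Irx2 exceeded 83.2% and 87.2%. The sum of Six2, Six4 and Six5 per kb was 1790 and 1796 in wt, as against 513 and 519 in Top2β-null, and Six2 made up 79.8% and 80.1% of it in wt against 0.667% and 0.180% in Top2β-null. The Iroquois sum per kb was 371 and 379 in wt, as against 3650 and 3716 in Top2β-null, where Irx1 and Irx2 together made up 90.4% and 90.1%.

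**Figure D2:**
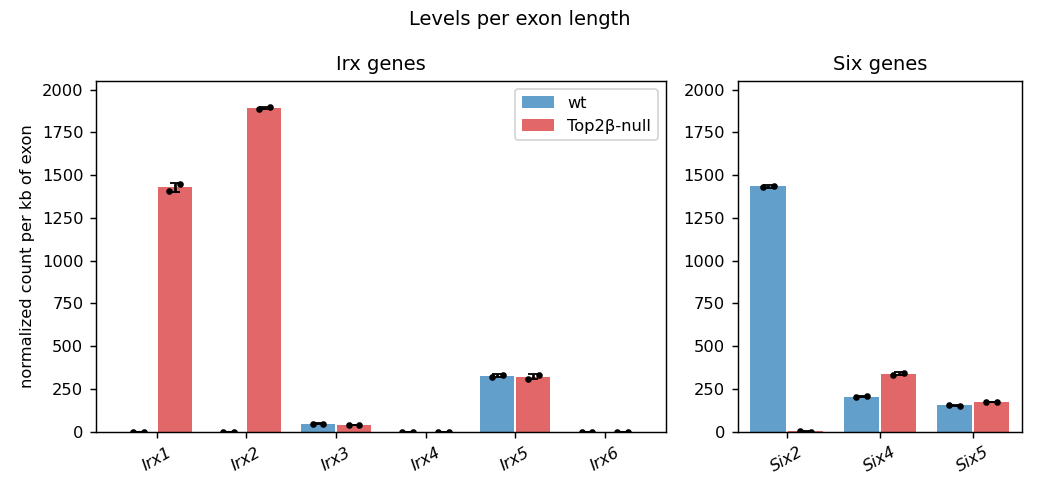
Mean normalized count per kb of exon for the Iroquois genes (left) and the sine oculis genes (right) in wt (blue) and Top2β-null (red) MEF cells, with error bars for the SD over 2 libraries and a black point for each library. The tall bars are Irx1 (1429) and Irx2 (1893) in Top2β-null and Six2 (1434) in wt, and Irx5 stands at 328 and 321.

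RefSeq promoter windows on GRCm38.p6, from 250 bases before to 50 bases after a start, were at hand for 6 of the 9 members, with a second window for Six4. Irx1, Irx5 and Irx6 had none in that table. The windows of Irx2 (chr13:72628570-72628869, forward strand), Irx4 (chr13:73260247-73260546, forward strand) and Six2 (chr17:85688205-85688504, reverse strand) are shown 5′ to 3′ because these genes were counted in Top2β-null cells alone, at the floor in both genotypes and almost only in wt. Capitals mark matches, on either strand, to the GC box, spelled GGGCGG, to the CCAAT box, to the TATA box, spelled TATAAA, to a site bound by Iroquois proteins, spelled ACANNTGT, and to the MEF3 site bound by sine oculis proteins, spelled TCAGGTTTC.
Irx2: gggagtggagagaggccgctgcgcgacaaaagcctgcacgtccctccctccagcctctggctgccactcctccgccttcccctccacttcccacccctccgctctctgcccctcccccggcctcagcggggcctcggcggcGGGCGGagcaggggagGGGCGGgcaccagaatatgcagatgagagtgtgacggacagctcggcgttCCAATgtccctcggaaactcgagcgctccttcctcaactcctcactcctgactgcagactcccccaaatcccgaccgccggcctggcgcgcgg
Irx4: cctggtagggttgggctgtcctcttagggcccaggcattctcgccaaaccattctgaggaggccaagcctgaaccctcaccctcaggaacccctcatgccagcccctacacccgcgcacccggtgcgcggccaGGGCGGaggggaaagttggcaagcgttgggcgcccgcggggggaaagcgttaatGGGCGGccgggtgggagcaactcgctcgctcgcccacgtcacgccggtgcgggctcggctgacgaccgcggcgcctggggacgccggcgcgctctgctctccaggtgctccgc
Six2: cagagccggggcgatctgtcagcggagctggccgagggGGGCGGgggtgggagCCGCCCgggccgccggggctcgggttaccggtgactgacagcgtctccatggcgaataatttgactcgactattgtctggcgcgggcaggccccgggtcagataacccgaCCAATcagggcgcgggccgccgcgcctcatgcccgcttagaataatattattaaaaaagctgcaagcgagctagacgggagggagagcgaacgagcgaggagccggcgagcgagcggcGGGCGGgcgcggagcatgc
All 3 windows are rich in CG dinucleotides, with 25 in Irx2, 31 in Irx4 and 37 in Six2, against a median of 7 over 32851 windows. They exceed 81.6%, 89.4% and 94.4% of these windows. The other member windows also lie above the median, with 14 in Irx3, 16 and 15 in Six4 and 17 in Six5. Irx2 and Irx4 each hold 2 GC boxes and Six2 holds 3, and 35.7% of all windows hold at least 1. A CCAAT match is present in Irx2 and in Six2, as in 37.4% of windows. The TATA box (in 13.6% of all windows) and the Iroquois site (in 7.38%) had no match in any of the 7 member windows. The MEF3 site, found in 0.429% of all windows, had 1 match in a window of Six4 (chr12:73113196-73113495, reverse strand) and none in the others. The windows of Irx4 and Irx2 thus both hold 2 GC boxes and many CG dinucleotides, and a match of letters is no sign of binding.

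Genes next to the members were compared to see how far each change extended (the plot of log2 fold change against distance). Of 180 annotated genes that start within 500 kb of a member, 91 passed the filter and were tested, 4 were called higher and 3 lower, beside the 5.27% and 4.97% of all features given above. Their median log2 fold change was 0.11, against 0.0027 over all features tested. Around Irx1 and Irx2, 13 genes had 1 of these as the nearest member, of which 3 were tested. Gm20554, a lincRNA on the opposite strand that starts 0.3 kb from the start of Irx2, had 0 counts in both wt libraries and 432 and 450 normalized counts in the Top2β-null libraries. It was called higher (at least 149-fold against the floor; quasi-likelihood test of edgeR, adjusted p = 4.4e-13). Gm40999, a transcript that starts 7.2 kb from Irx1, had 0 counts in wt and 53.9 and 54.5 normalized counts in the Top2β-null libraries (at least 18.3-fold, adjusted p = 1.3e-07 from edgeR), under the mean count of 100 that a call needs. Between Irx1 and Irx2, 6 other genes start, and besides Gm20554 only the pseudogene Rpl9-ps4 had more than 2 raw counts in any library. Rpl9-ps4, 173.5 kb from Irx2, had 85.8 and 95.6 normalized counts in wt and 95.3 and 127 in Top2β-null, with a log2 fold change of 0.29 (adjusted p = 0.189, edgeR).

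Beyond Irx4, which was at the floor in both genotypes, Tert was called higher. Tert, the catalytic subunit of telomerase, starts 366.4 kb from Irx4. It had 19.2 and 15.5 normalized counts in wt and 968 and 939 in Top2β-null. Its log2 fold change was 5.78 (edgeR, adjusted p = 1.0e-15, standard error 0.127, or 0.269 with DESeq2). The other 6 tested neighbours of Irx4 had an absolute log2 fold change below 1. In the cluster on chromosome 8, 22 neighbours were tested, and 1 was called higher and 1 lower, both beyond Irx6. Mmp2, which encodes a gelatinase, had a log2 fold change of 1.18 (2711 and 2876 normalized counts in wt, 6315 and 6380 in Top2β-null, adjusted p = 3.8e-14, edgeR). Lpcat2, an enzyme of phospholipid remodelling, had one of -3.38 (529 and 634 normalized counts in wt, 65.2 and 46.5 in Top2β-null, adjusted p = 5.4e-12, edgeR). Capns2, also beyond Irx6, was not called for its low mean count, with 92.9 and 91.8 against 16.6 and 16.8 (log2 fold change -2.46, adjusted p = 4.95e-07, edgeR). Crnde, a noncoding gene that starts 1.5 kb from Irx5 on the opposite strand, had a log2 fold change of -0.15 (adjusted p = 0.0612, edgeR).

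**Figure D3:**
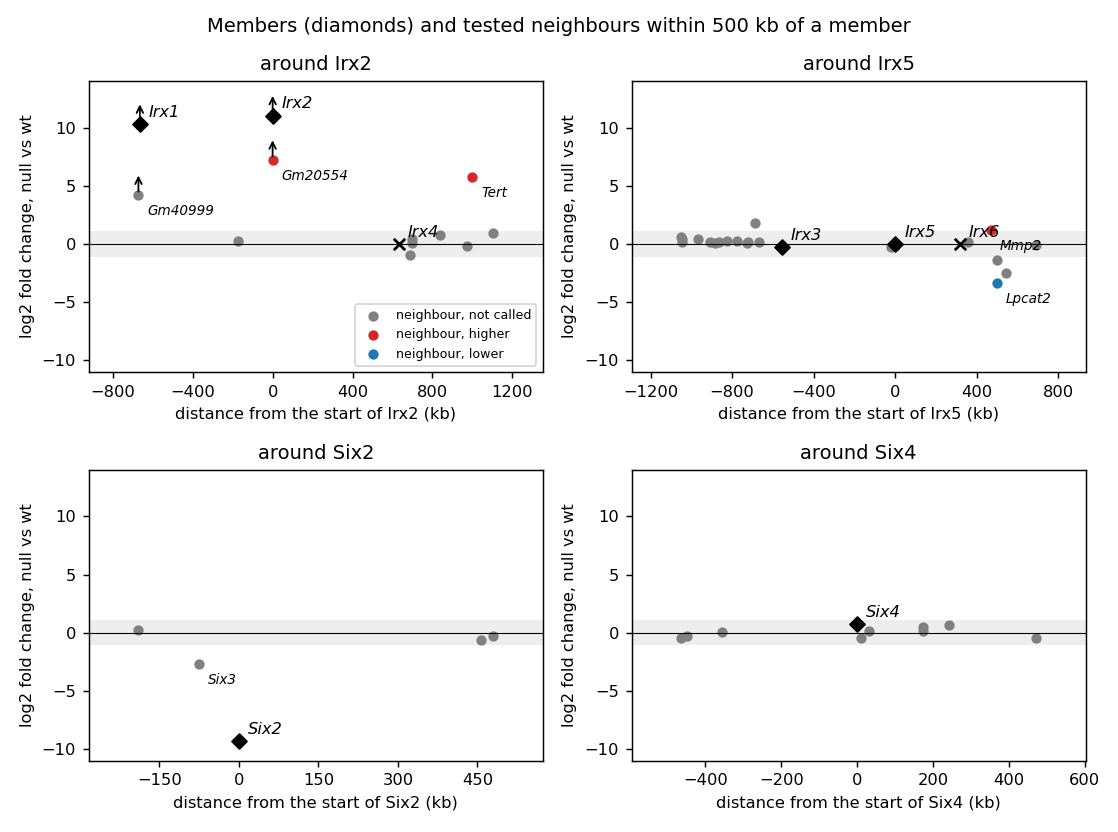
Log2 fold change of Top2β-null against wt (vertical axis) by distance in kb from the start of Irx2, Irx5, Six2 or Six4 (horizontal axis), for members (black diamonds; crosses at 0 for Irx4 and Irx6, which have no value) and for the tested neighbours shown within 500 kb of a member (grey, not called; red, called higher; blue, called lower). Points with arrows are lower bounds; the grey band spans -1 to 1. The high points are Irx1, Irx2, Gm20554 and Gm40999, with Tert at 5.78, and Six2 lies at -9.34 with Six3 at -2.71.

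Near Six2, its paralogue Six3, a factor of the forebrain and eye that starts 74.7 kb away, was also lower. Six3 had 22.2 and 31.9 normalized counts in wt and 3.11 and 4.95 in Top2β-null, with a log2 fold change of -2.71 (edgeR, adjusted p = 1.6e-04, standard error 0.493). Its mean count is under 100, so it was not called. The 3 other tested genes near Six2 had an absolute log2 fold change below 1. Near Six4 all 10 tested neighbours lay within an absolute log2 fold change of 1. Near Six5, 45 neighbours were tested, of which 1 was called higher and 2 lower, and 36 had an absolute log2 fold change of 1 or less. The lowest fitted value among all tested neighbours was that of Psg17, a pregnancy-specific glycoprotein gene of a multigene family that starts 273 kb from Six5. Psg17 had 162 and 172 normalized counts in wt against 7.25 and 0 in Top2β-null (log2 fold change -5.51, adjusted p = 4.94e-09, edgeR), and was not called because its mean is under 100. Reads of such near copies may be split between them. Dmpk, the kinase gene that starts 10.7 kb from Six5, had 6066 and 6214 normalized counts in wt and 1496 and 1473 in Top2β-null, a log2 fold change of -2.05 (edgeR, adjusted p = 8.7e-17, standard error 0.0371), whereas Six5 had 0.18. Fosb, an AP-1 subunit, had a log2 fold change of 1.21 (adjusted p = 1.3e-09, edgeR) and Mill2, an MHC class I-like gene, one of -1.01 (adjusted p = 8.7e-05, edgeR). The Mill2 call was lost with scaling to the total count, where its log2 fold change was -0.94, with no filter, with TMM factors from genes only, and without either wt library or Top2β-null replicate 1. Without wt replicate 1 its log2 fold change was -1.05, and there the call was lost through the cut-off on the mean count.

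Sine oculis proteins work together with EYA coactivators and DACH proteins on their target genes. In a list of 7 such partners, compiled with earlier results of these data known, 3 were called higher and none lower, beside 5.27% and 4.97% of all features. Their median log2 fold change was 1.63 against 0.0027 over all features (the plot of partner genes by library). Eya1, which acts in kidney, ear and muscle precursors, rose from 17.2 and 16.4 normalized counts in wt to 1474 and 1536 in Top2β-null. This is a log2 fold change of 6.48 (edgeR, adjusted p = 4.9e-17, standard error 0.112, or 0.264 with DESeq2). Dach1 rose from 16.1 and 18.4 to 248 and 245 normalized counts. Its log2 fold change was 3.82 (edgeR, adjusted p = 5.5e-11, standard error 0.198, or 0.323 with DESeq2). The mean of Dach1 fell under the count cut-off with either Top2β-null library left out. Sobp, which encodes a nuclear protein of the same network, rose from 70.7 and 93.7 to 234 and 276 normalized counts (log2 fold change 1.63; edgeR, adjusted p = 1.7e-07, standard error 0.160). Eya2 had 9.08 and 6.76 normalized counts in wt and 48.7 and 59.4 in Top2β-null (log2 fold change 2.76, adjusted p = 5.5e-06, edgeR), and was not called for its low mean count. The abundant partners did not reach the fold cut-off. Eya3 was lower in both Top2β-null libraries, with 8635 and 9055 normalized counts in wt against 7181 and 7236 and a log2 fold change of -0.30 (adjusted p = 1.31e-07, edgeR). Eya4, at 8210 and 8117 normalized counts in wt and 8267 and 8444 in Top2β-null, had a log2 fold change of 0.034 (adjusted p = 0.271, edgeR). Dach2 had 6 to 30 raw counts per library and a log2 fold change of -1.25 (adjusted p = 0.041, edgeR), which is not a call.

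Among 12 other homeobox genes of the TALE superclass, 1 was called higher and 1 lower, beside 5.27% and 4.97% of all features, and the median log2 fold change was -0.10. This list, too, was compiled with earlier results known. Meis3, of the MEIS branch, fell from 1196 and 1230 to 277 and 265 normalized counts, a log2 fold change of -2.16 (edgeR, adjusted p = 9.7e-14, standard error 0.0685). The 10 that were not called had log2 fold changes between -0.89 (Pknox2) and 0.94 (Tgif2). Tgif2 crossed the cut-off at 1.01 with scaling to the total count. Mkx, the TALE gene closest to the Iroquois genes and a factor of tendon, had 1543 and 1494 normalized counts in wt and 1141 and 1087 in Top2β-null (log2 fold change -0.45, adjusted p = 1.6e-06, edgeR), which did not pass the fold cut-off.

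**Figure D4:**
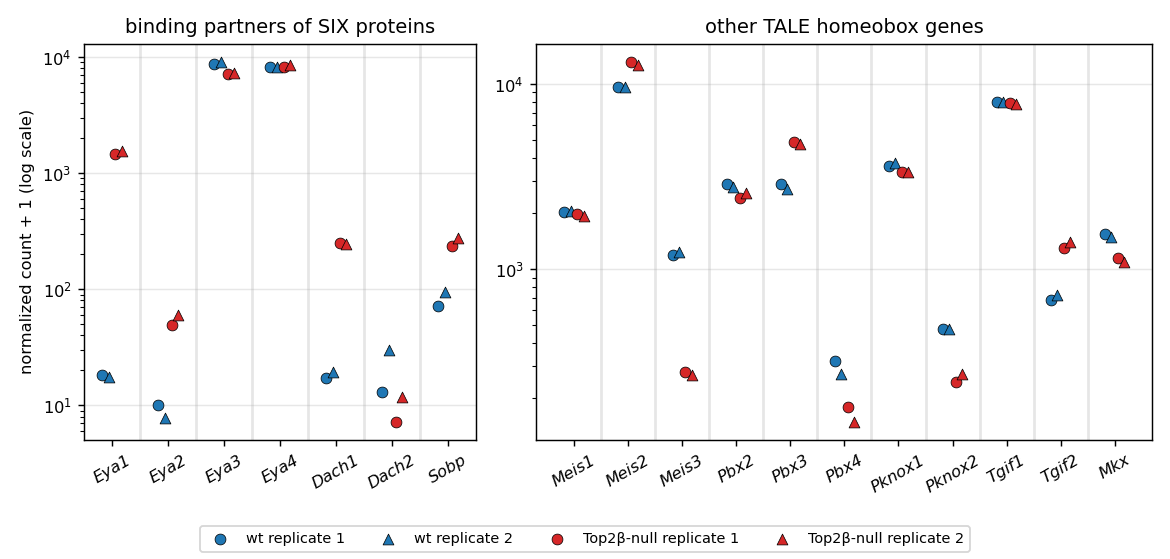
Normalized count plus 1 (log scale) of the 7 genes for partners of sine oculis proteins (left) and of 11 of the other TALE homeobox genes (right) in wt (blue) and Top2β-null (red) libraries, with circles for replicate 1 and triangles for replicate 2. Eya1, Dach1 and Sobp lie higher in both Top2β-null libraries and Meis3 lies lower.

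To place the on and off patterns among all genes, the 3 genes nearest to Six2 and to Irx2, the 9 members themselves left out, were sought over the 4 libraries, by Euclidean distance between log2(normalized count + 1) values centred on each gene's mean, among 16649 genes with a mean over 100. Nearest to Six2 was Tbx1, a T-box factor of the pharyngeal region, at a distance of 0.234, with 1256 and 1219 normalized counts in wt and 2.07 and 0 in Top2β-null. Parvb, a focal adhesion gene (distance 0.953), and Pcdhac2, a clustered protocadherin (distance 1.05), followed. Nearest to Irx2 was Brinp3, at a distance of 0.165, with 0 counts in wt and 5753 and 5433 normalized counts in Top2β-null. Gm8995 (distance 0.801) and Gm42047 (distance 1.01) followed. With 4 libraries in 2 groups, this likeness says little beyond a switch of similar size in the same direction.

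The libraries summed to between 133116830 and 149647278 counts over genes and repeats. Top2b, the targeted gene, had 18259 and 18465 normalized counts in wt and 3879 and 3789 in Top2β-null, in the direction of the labels. Markers of fibroblasts were abundant in both genotypes, with 8 of 8 measured and a summed level of 1300290 to 1324940 normalized counts in wt and 878655 to 883433 in Top2β-null. Within that list Thy1, Pdgfrb and Pdgfra were called higher and Col1a1 and Col3a1 lower. Markers of other cell types ranged from genes at 0 to abundant ones. Myog and Myf5 of skeletal muscle and Tyrobp of leukocytes were at 0 in every library, and Myod1 reached 1.04 normalized counts at most, whereas Acta1 was called lower, with 279.6 and 242 in wt against 138 and 113 in Top2β-null. Of the heart muscle list, Myh6, Myl2, Nkx2-5 and Actn2 stayed under 10 normalized counts, while Tnnt2 had 761 and 770 in wt and 673 and 707 in Top2β-null. The summed levels were 769 to 773 normalized counts in wt and 680 to 713 in Top2β-null for heart muscle, and 247 to 282 and 116 to 142 for skeletal muscle. The nephron progenitor list moved with genotype, from 6759 to 6892 in wt to 4074 to 4313 in Top2β-null, mostly through Gdnf (6784 and 6666 against 2473 and 2673 normalized counts). Against that fall, Eya1, which is also in the partner list above, was called higher in it. In the same list Cited1 had 90.8 and 75.3 normalized counts in wt against 47.6 and 33.7 in Top2β-null, Wt1 had 0 counts in wt and 60.1 and 47.5 normalized counts in Top2β-null, and Pax2 had 0 and 1.93 against 19.7 and 22.8. Epithelial markers summed to 36.3 to 45.4 in wt and 14.5 to 15.8 in Top2β-null, endothelial ones to 162 to 165 and 252 to 258, leukocyte ones to 9.08 to 11.6 and 32.1 to 35.7, and neuronal ones to 2039 to 2052 and 4373 to 4643 normalized counts. Kdr of the endothelial list was called higher, with 71.7 and 68.6 normalized counts in wt against 203 and 205 in Top2β-null. The endothelial Tek went the other way, with 43.4 and 34.8 against 9.32 and 3.96 (log2 fold change -2.54, adjusted p = 7.8e-05, edgeR), and Pecam1 and Cdh5 had log2 fold changes of -0.50 and -0.16 (adjusted p = 0.28 and 0.676, edgeR). Tubb3 made up most of the neuronal sum and was also called higher, with 2022 and 2007 against 4322 and 4598. The part of these markers in the levels of the Iroquois and sine oculis genes was not tested.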

How the data were processed

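Ribosomal RNA was removed from total RNA before sequencing of 2 wt and 2 Top2β-null MEF libraries. According to their methods, the authors trimmed the read pairs with Trim Galore! and mapped them to mm10 with STAR, keeping reads that map to many places. TEtranscripts then gave counts for Gencode genes and for repeat families. The deposited values are raw counts, not normalized, with 1 column per library. How TEtranscripts was set for strand is not given in the sources used here.

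Identifiers were looked up without their version in GENCODE M21 (54495 of 54842 found), which gave positions on GRCm38 and exon lengths. A feature was kept when 2 or more libraries (or as many as the smaller group holds, when a library was left out) had 10 or more counts. Testing used edgeR 4.0.16 in R 4.3.3, with TMM factors over all kept features, genotype as the sole term, quasi-likelihood F-tests and Benjamini-Hochberg adjustment over 26566 features. For normalized counts, effective library sizes were brought to their geometric mean. Standard errors are the size of the log2 fold change over the root of F. They can be too small where a genotype has few counts, and DESeq2 gave larger ones, such as 0.264 against 0.112 for Eya1. Where neither library of a group exceeded 3 counts, the group was treated as being at the floor. The study's methods name DESeq2, used here (1.42.0) as an alternative, and its cut-offs were kept.

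Members, gene lists and windows were chosen with earlier results of these data known. The text names all members, all called genes among partners, TALE genes and neighbours, Top2b, and the 3 nearest patterns (members left out) to the most abundant member of each genotype, except genes that are not reported here, which stay in the counts and are left out of the plots. Gm40999, Rpl9-ps4, Crnde, Six3, Psg17, Capns2, Eya2, Eya3, Eya4, Dach2, Pknox2, Tgif2, Mkx and the markers were named in addition, after their values were seen. Replicates were no duplicates of each other, as their chi-square over degrees of freedom was 3.65 for wt and 5.07 for Top2β-null. The scripts were tested on simulated data. Alternatives were DESeq2, TMM over genes without repeats, total-count scaling, no filter, a replicate block, the adjusted p alone as cut-off, a wider window, and each library left out.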

Additional observations from a re-analysis of the deposited data

How the results depend on the processing

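The counts of members called, 2 higher and 1 lower, held with DESeq2, gene-only TMM factors, total-count scaling, no filter on low counts, the replicate block, and each library left out. When the adjusted p alone decided a call, 8218 of the 25085 tested genes were higher and 8445 lower, so most genes passed. Under this cut-off 4 members were higher and 1 lower, and nothing is read from these counts either. Of the partner genes, 4 were higher and 2 lower, of the TALE genes 4 and 6, and of the neighbours 32 and 28. Within 1000 kb in place of 500 kb, 8 neighbours were called higher and 6 lower. Total-count scaling gave 2 TALE genes called higher, and turned Meis1 to 0.0038 and Tgif1 to 0.046 in log2 fold change, so neither has a direction. With each library left out, TALE genes called higher ranged from 1 to 2, the 2 being reached without Top2β-null replicate 1, where Tgif2 was at 1.01. Partner genes called higher ranged from 2 to 3 and neighbours called lower from 2 to 4.

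Of the members' values in the alternatives, 44 moved by less than the replicate SD, 19 moved by more, and none of a called member changed sign. With each library left out, the log2 fold change of Six2 ranged from -10.48 to -8.68, its 7 and 2 counts limiting the precision, that of Six4 from 0.70 to 0.77 and that of Irx5 from -0.077 to 0.036. The fitted values of Irx1 and Irx2 depend on the prior count and are not printed. With the replicate number as a block, the log2 fold change was -9.34 for Six2 and 0.72 for Six4, and 1386 genes were called higher and 1318 lower. The labels give the numbers no meaning beyond the name, and residuals of libraries with equal numbers correlated at 0.0207 over 17952 features, as a description, so the libraries were not treated as paired.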
